A study of Mus musculus with 16 samples.

Results

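The miR-34 family was followed in mouse serum through the 5p arms of its 3 members, mmu-miR-34a-5p, mmu-miR-34b-5p and mmu-miR-34c-5p (mmu for mouse, left out below). They were chosen by name from the 1881 mouse miRNAs on an Agilent 1-colour miRNA microarray, with their signals and detection calls over age already in view, so their levels by age are given as a description with no test. Serum came from male mice aged 4, 8, 36 and 58 weeks, with 4 mice at each age and 1 mouse on each of 16 arrays. No treatment, genotype or strain is named in the sources used here, and age is the factor that differs between the groups. Blood was drawn from the heart and spun, and 1 ng of serum RNA per mouse was labelled with Cy3.

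Genes of the miR-34 family are direct targets of the tumour suppressor p53, which switches them on after DNA damage and other stress. Their mature products repress cell cycle, survival and metabolic genes, among them Cdk4, Cdk6, Bcl2, Met and the deacetylase Sirt1, and so reinforce arrest, apoptosis or senescence. In most tissues miR-34a is the main member, whereas miR-34b and miR-34c, which come from a shared transcript, are known from multiciliated epithelium of the airways and oviduct and from testis. MiR-34a is known to rise with age in heart, brain and other organs, and it also circulates in blood.

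The mature sequences show what the family shares, the seed that pairs with target mRNAs (bases 2 to 8, in capitals). They are from RefSeq on build GRCm38.p6, where 2 of the 3 members have a mature entry, and 2 miRNAs of the miR-449 family with the same seed are set beside them.
mmu-miR-34a-5p: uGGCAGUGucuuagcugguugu
mmu-miR-34b-5p: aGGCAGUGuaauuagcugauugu
mmu-miR-449a-5p: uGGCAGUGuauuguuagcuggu
mmu-miR-449c-5p: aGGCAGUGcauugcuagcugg
These 4 are all the mature entries of that table that carry the seed GGCAGUG. Aligned at their 3′ ends, over the bases after the seed of the shorter sequence, miR-34b-5p has the same base as miR-34a-5p at 11 of 14 positions, miR-449a-5p at 7 of 14 and miR-449c-5p at 8 of 13. MiR-34b-5p is 1 base longer than miR-34a-5p.

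The hairpins show the genes themselves, with the seed of the 5p arm again in capitals. Mir34a lies on the plus strand at chr4:150068454-150068555 (GRCm38.p6). No other gene of the RefSeq table overlaps it, with symbols that begin with Mir34 left out of the search. Mir34b (chr9:51103562-51103645) and Mir34c (chr9:51103034-51103110) lie close together on the minus strand, and each overlaps the spans of the genes Btg4 and Hoatz.
Mir34a: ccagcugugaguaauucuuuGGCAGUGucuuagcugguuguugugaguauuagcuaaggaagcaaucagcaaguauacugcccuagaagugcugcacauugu
Mir34b: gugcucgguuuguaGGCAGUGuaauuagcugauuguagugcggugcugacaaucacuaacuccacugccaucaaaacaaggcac
Mir34c: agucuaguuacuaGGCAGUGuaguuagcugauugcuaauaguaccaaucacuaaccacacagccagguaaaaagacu
The 3 hairpins have the seed near their 5′ end.

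The arrays lay on 2 slides, with all arrays of 4 and 8 weeks on slide 1 and all arrays of 36 and 58 weeks on slide 2. The recorded scan dates split the arrays in the same way. Age therefore cannot be told apart from slide and scan outside the pairs 8 against 4 and 58 against 36 weeks. Agilent's quality report set 3 arrays aside as needing evaluation (the marked arrays), and their negative-control spots had an SD of 19.1 (4-week replicate 1), 7.45 (4-week replicate 4) and 59.3 (36-week replicate 4). On the other 13 arrays it was 1.82 to 4.45. The number of miRNAs called detected ran from 163 to 360 per array. Erythrocyte miR-451a and miR-486a-5p and myeloid miR-223-3p, abundant blood cell miRNAs that serum carries, were detected on 16 of 16 arrays. Another red cell marker, miR-144-3p, was detected on 6 of 16.

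Of the 3 members, miR-34a-5p was detected and the other two were not. Called by the scanner software, miR-34a-5p was detected on 11 of 16 arrays, and miR-34b-5p and miR-34c-5p on 0 of 16. Over the whole array 30.4% of the 1881 miRNAs were detected on at least 1 array, and 15.2% on at least 3 of 4 arrays of an age, the condition for being tested. By age, 2 of the 4-week arrays detected miR-34a-5p, as did 3 of 4 at every later age. The 5 arrays without it were 4-week replicates 1 and 4, 8-week replicate 3, 36-week replicate 4 and 58-week replicate 2, which include all 3 marked arrays.

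MiR-34a-5p was a dim signal at every age. Its background-subtracted intensity before any scaling, in replicate order, was 31.1, 18.1, 12.6 and 14.0 at 4 weeks and 9.29, 9.61, 4.99 and 9.01 at 8 weeks. It was 16.8, 34.8, 25.9 and 19.1 at 36 weeks and 17.2, 12.1, 26.5 and 14.7 at 58 weeks. The 4 arrays of 8 weeks were below all 12 others, and the other ages overlapped each other.

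The arrays were then brought to the same 75th percentile, taken over 24 always-detected miRNAs, and put on the log2 scale, with a floor at 1.92 that no array of miR-34a-5p reached. Scaled log2 signals were 4.45, 4.08, 3.12 and 2.90 at 4 weeks and 3.09, 3.34, 2.68 and 2.72 at 8 weeks. They were 4.67, 4.86, 4.48 and 4.25 at 36 weeks and 4.36, 4.34, 5.15 and 4.53 at 58 weeks. All 8 arrays of 36 and 58 weeks were above all 4 arrays of 8 weeks, and 4-week replicate 1 reached into their range.

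The lowest mean on this scale was that of 8 weeks (2.96 ± 0.31, SD, n = 4), followed by 4 weeks (3.64 ± 0.74), 36 weeks (4.57 ± 0.26) and 58 weeks (4.59 ± 0.38). Within this order the neighbours 36 and 58 weeks differed by 0.03, far less than the pooled SD within ages of 0.47. The neighbours 8 and 4 weeks differed by 0.68 and the neighbours 4 and 36 weeks by 0.93, and in each of these pairs the groups of arrays overlapped. The wide SD at 4 weeks joined replicates 1 and 2, which were high, with replicates 3 and 4, which were low. Replicates 1 and 4 at that age were marked arrays.

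**Figure D1:**
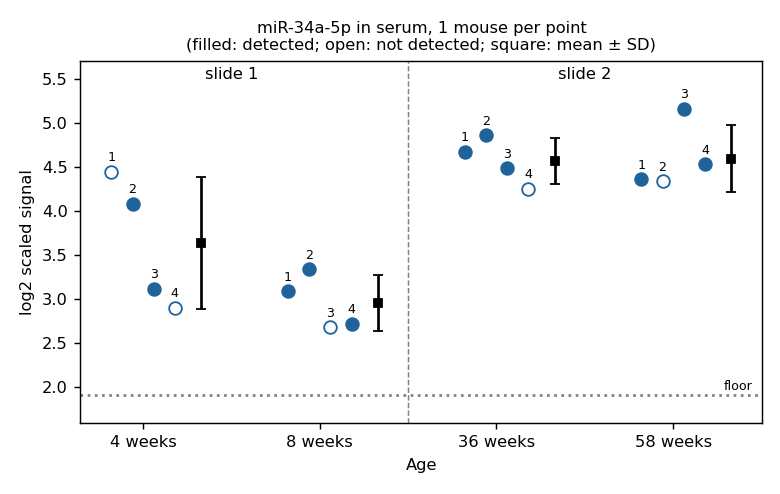
Scaled log2 signal of miR-34a-5p in each of the 16 mice by age, with the replicate number above each point; filled points were called detected, open points were not, and squares with bars are the mean ± SD of 4 mice. The 4 points of 8 weeks lie between 2.68 and 3.34, below all 8 points of 36 and 58 weeks (4.25 to 5.15), and the dashed line separates the 2 slides.

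Set against the spread of single negative-control spots on their own array, the signals of miR-34a-5p stood high on some arrays and not on others. Above the mean of the negative-control spots, in units of the SD of those spots, they stood at 0.711, 7.17, 3.73 and 0.981 at 4 weeks and at 2.86, 3.48, 0.161 and 2.96 at 8 weeks. They stood at 4.35, 8.10, 5.15 and -0.680 at 36 weeks and at 2.74, 2.01, 10.04 and 3.69 at 58 weeks. The 4-week replicate 1 array, bright in intensity, was thus within 1 SD of its negative controls, and 36-week replicate 4 lay below their mean. The highest value was that of 58-week replicate 3, and the ages overlapped widely on this measure. Its unit is the SD of single spots, whereas each signal is a mean over 26 to 30 spots, so the unit is not the error of that mean.

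MiR-34a-5p was read by 2 probes, each with 12 to 15 spots per array that carried no outlier flag. Probe 2 was the brighter on 16 of 16 arrays. The spread between spots of a probe had a median coefficient of variation of 19.4%, from 7.39% on 36-week replicate 2 to 134% on 36-week replicate 4. Both probes gave the same order of the ages. Scaled log2 means of probe 1 were 3.19, 2.46, 4.10 and 4.13 at 4, 8, 36 and 58 weeks, and those of probe 2 were 3.98, 3.32, 4.91 and 4.94. Between 58 and 8 weeks the difference was 1.67 by probe 1 and 1.62 by probe 2, and for neither did the arrays of these ages overlap. The spots of an array share its RNA and are not replicates of an age.

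**Figure D2:**
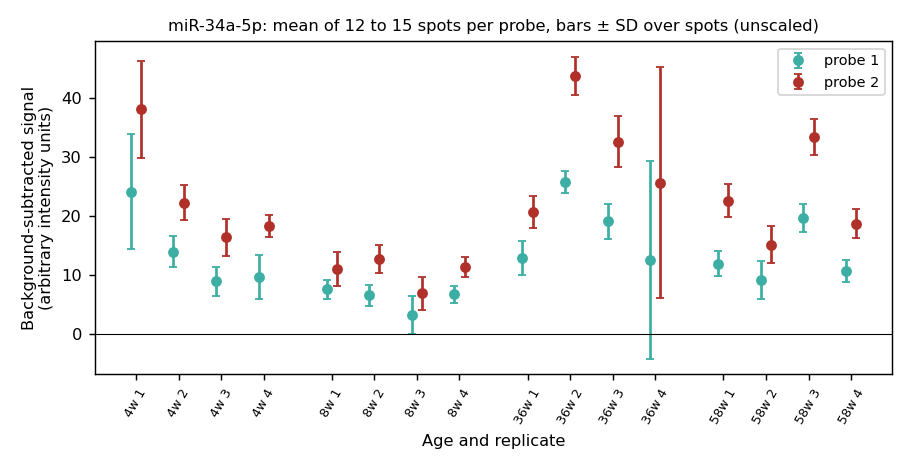
Unscaled intensity of the 2 probes of miR-34a-5p on each array, as the mean over unflagged spots with bars of ± 1 SD between spots. Probe 2 lies above probe 1 on all 16 arrays, and the bars are widest on 36-week replicate 4.

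The other 2 members gave no signal above background at any age. MiR-34b-5p had intensities from -83.5 to 0.970 (median -3.0) and miR-34c-5p from -81.7 to -0.594 (median -4.48), where values below 0 arise because background has been subtracted. Both lay under the mean of the negative-control spots on 16 of 16 arrays, with heights of -2.44 to -1.26 SD for miR-34b-5p and -2.83 to -2.11 SD for miR-34c-5p. The lowest values of each came from 36-week replicate 4, and without the 3 marked arrays they ran from -6.12 to 0.970 and from -8.29 to -0.594. No fold between ages is given for either, since neither was above background at any age. The seed relatives miR-449a-5p, miR-449b and miR-449c-5p, miRNAs of multiciliated cells like miR-34b and miR-34c, were likewise detected on 0 of 16 arrays and lay under the negative-control mean on all of them. No upper limit on the amount of any of these follows from the arrays.

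The arms from the other side of the hairpins were read as well. MiR-34a-3p and miR-34c-3p were detected on 0 of 16 arrays, with intensities from -6.80 to 5.56 and from -35.8 to -2.30. MiR-34b-3p was detected on 1 of 16 arrays, 4-week replicate 1, at an intensity of 158.5. Its intensity was higher still on 36-week replicate 4 (274.7, not called detected) and was 29.7 on 4-week replicate 4, so its 3 highest values came from the 3 marked arrays. On the other 13 arrays it ran from -1.73 to 19.7 with no detection. The part of the negative-control spread in this signal was not tested. None of the 3 arms met the condition for testing, so miR-34a-5p was the only one of the family's 6 arms with a measurable course over age.

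**Figure D3:**
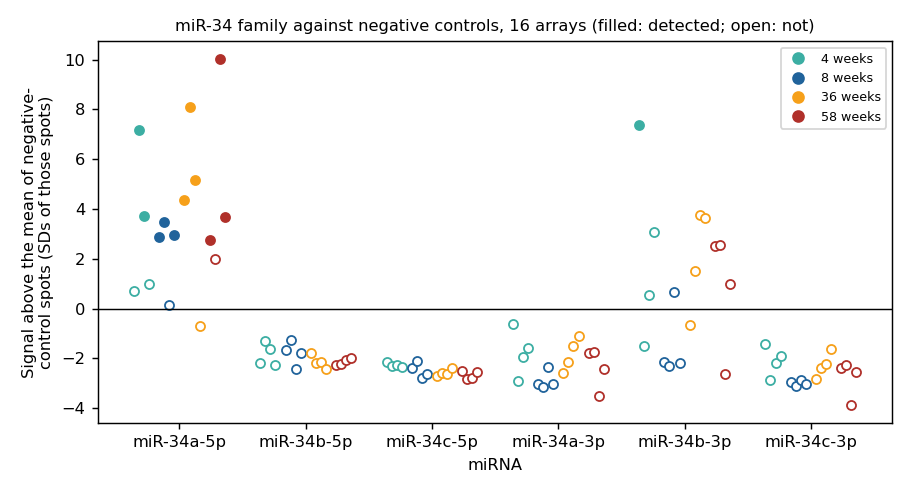
Height of each miR-34 arm above the mean of the negative-control spots of its array, in SDs of those spots, with 1 point per array coloured by age and filled where the miRNA was called detected. MiR-34a-5p reaches 10.04 on 58-week replicate 3, miR-34b-5p and miR-34c-5p stay below 0 on all 16 arrays, and miR-34b-3p is scattered with 1 detection.

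Between ages, miR-34a-5p was higher at 58 than at 8 weeks by 1.64 on the log2 scale (3.11-fold) and at 36 than at 8 weeks by 1.61 (3.05-fold). Against 4 weeks it was higher by 0.96 at 58 weeks (1.94-fold) and by 0.93 at 36 weeks (1.90-fold), with overlapping arrays. On slide 1 it was lower at 8 than at 4 weeks by 0.68, and on slide 2 it differed by 0.03 between 58 and 36 weeks. Within slides, then, the older age was not higher by more than the spread between mice, and the differences of over 0.9 lay between slides. The slope was 0.36 per doubling of age, and -0.45 with slide as a term of the model, where the median slope of all tested miRNAs moved from 0.12 to -0.58.

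The values of miR-34a-5p are set beside those of all 285 tested miRNAs. The median difference of these was 0.71 for 58 against 8 weeks and 0.71 for 36 against 8 weeks, and 73 and 110 of the 285 had a larger difference than miR-34a-5p. Between 58 and 4 weeks the median was -0.0031 and 7 of 285 had a larger difference. For the slope across all ages 14 of 285 had a larger one.

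These medians and ranks changed when marked arrays were left out, which also changed the scaling and the floor. Without the 3 marked arrays 2 mice were left at 4 weeks and 3 at 36 weeks. The scale was then taken over 88 always-detected miRNAs, with a floor of 1.72. Without 36-week replicate 4 alone the floor was 2.07. Without 36-week replicate 4 the median was 0.36 for 58 against 8 weeks and that for 36 against 8 weeks 0.24, where miR-34a-5p differed by 1.33 and 1.20, and 88 and 45 of 279 tested miRNAs had a larger difference. Without all 3 marked arrays the medians were 0.29 and 0.078, where miR-34a-5p differed by 1.44 and 1.24, and 85 and 62 of 307 had a larger difference. In that setting the rank of miR-34a-5p fell for 58 against 4 weeks, with 102 of 307 larger (median 0.18), and for the slope, with 86 of 307 larger. The order of miR-34a-5p among all miRNAs was thus not stable between these settings.

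Arrays did not overlap, with the older age higher, for 2.46% of tested miRNAs between 36 and 8 weeks and for 7.72% between 58 and 8 weeks, miR-34a-5p being among them in both. That share was 3.86% between 58 and 4 weeks and 3.86% between 58 and 36 weeks, where the arrays of miR-34a-5p overlapped. In limma with Benjamini-Hochberg adjustment 0.351% of the 285 passed the trend, and this was a miRNA outside the family, miR-214-3p, which had a slope of -0.75 (adjusted p = 0.00175). In limma on the pairs miR-214-3p alone passed for 36 against 4 weeks (-2.75, adjusted p = 0.0297) and 58 against 4 weeks (-2.86, adjusted p = 0.0199). No miRNA passed in the other pairs. With slide as a term of the model 0 miRNAs passed the trend. The same count held under quantile normalization with or without normexp, with the deposited total signal, with outlier spots kept and with detection required on 8 arrays.

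**Figure D4:**
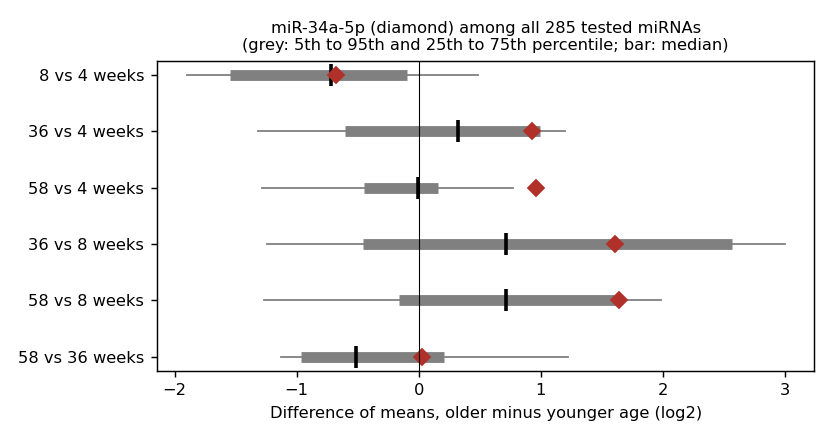
Difference of miR-34a-5p between each pair of ages (diamonds, log2) beside the distribution over all 285 tested miRNAs, drawn as the 5th to 95th percentile (thin line), the 25th to 75th percentile (thick line) and the median (bar). All 16 arrays are included. The diamond for 58 against 4 weeks (0.96) lies above the 95th percentile (0.78), and those for the other 5 pairs lie within the thin lines.

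The size of these differences depended on which signal was used and on how the arrays were put on 1 scale. Under quantile normalization, which gives every array the same distribution, miR-34a-5p differed by 0.25 between 58 and 8 weeks and by 0.11 between 36 and 8 weeks. With normexp background correction (offset 50) and quantile normalization together the same differences were 0.071 and 0.050, and with the total signal per miRNA that the scanner software deposits they were 0.91 and 1.05. Without the 3 marked arrays they were 1.44 and 1.24. The sign of the difference between 8 and 4 weeks turned to 0.67 under quantile normalization, 0.12 with the total signal and 0.12 with normexp and quantile normalization together. The deposited total signal was 0.1 wherever miR-34a-5p was not called detected, 4-week replicates 1 and 4 included. The normexp offset of 50 was larger than any background-subtracted intensity of miR-34a-5p (34.8 at most). With no scaling between arrays miR-34a-5p was lower at 58 than at 4 weeks by 0.073 and lower at 58 than at 36 weeks by 0.46.

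Ratios within an array need no scaling. The log2 ratio of miR-34a-5p to each of the 24 miRNAs detected on all arrays was on average higher at 58 than at 4 weeks for 24 of the 24, with differences from 0.024 to 1.86 (median 0.95). Between 58 and 8 weeks it was higher for 22 of 24 (median 1.06), and for 11 of them the arrays of these ages did not overlap. Between 36 and 8 weeks it was higher for 17 of 24 (median 0.93). Within slides it was higher for 9 of 24 between 8 and 4 weeks (median -0.17) and for 18 of 24 between 58 and 36 weeks (median 0.28), with no reference for which the arrays did not overlap. Relative to most of the always-detected miRNAs, miR-34a-5p was thus on average higher at 36 and 58 weeks (slide 2) than at 4 and 8 weeks (slide 1). In each of these pairs of ages the arrays overlapped for most of the ratios. The 24 share the serum and the array and are not independent of each other.

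The miRNAs whose scaled signal ran most like that of miR-34a-5p over the 16 arrays were miR-142a-3p of blood cells (Pearson r = 0.740, Spearman rho = 0.724), miR-192-5p of gut and liver (r = 0.716, rho = 0.656), miR-139-5p (r = 0.705, rho = 0.641), miR-29a-3p (r = 0.695, rho = 0.741) and the epithelial miR-205-5p (r = 0.665, rho = 0.509). The median r over the 284 others was 0.269, and 16 of them had an r over 0.5. Without the 3 marked arrays the same 5 had r from 0.635 to 0.831 over 13 arrays. All these values share the arrays, their scaling and the slide split. Of the 5, miR-192-5p, miR-29a-3p and miR-205-5p also stand on the lists of p53-linked miRNAs given below, which hold 13 of the 284 others. The 5 were picked by their likeness on these same arrays, and a shared control by p53 was not tested.

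Markers of blood cells, liver and muscle are given beside these levels. The log2 ratio of erythrocyte miR-451a to miR-23a-3p, an index of red cell RNA, had means of 3.35 ± 0.74 (SD, n = 4) in the youngest mice, 2.89 ± 0.62 at 8, 3.26 ± 0.90 at 36 and 2.73 ± 0.24 at 58 weeks. Its smallest p among the 6 pairs of ages was 0.2 (2-sided exact permutation test, adjusted p = 0.771, for 58 against 4 weeks, difference -0.62). The log2 signal of miR-122-5p, the abundant hepatocyte miRNA, was 7.32 ± 2.37, 6.90 ± 2.0, 6.05 ± 2.94 and 7.14 ± 0.37, with a smallest p of 0.571 (2-sided exact permutation test, adjusted p = 0.971). The smallest p this test allows with 4 against 4 arrays is 0.0286. The other liver marker, miR-192-5p, which is also among the miRNAs most like miR-34a-5p, had means of 5.21 ± 0.99, 4.47 ± 1.08, 5.48 ± 0.79 and 5.91 ± 0.19 in order of age. From 8 to 36 weeks miR-192-5p differed by 1.01 and miR-122-5p by -0.85. MiR-122-5p was detected on 15 of 16 arrays, and its values at 36 weeks ran from the floor of 1.92 to 8.80. Its mean at 36 weeks was thus lowered by an array at the floor, and no contrast with miR-192-5p is drawn. The log2 summed level of the 3 striated muscle markers (miR-1a-3p, miR-133a-3p and miR-206-3p) ran from 6.44 to 8.34 at 4 weeks, 5.81 to 7.98 at 8, 7.86 to 9.83 at 36 and 6.36 to 8.18 at 58 weeks, with means of 7.51, 7.06, 8.46 and 7.40. It was highest at 36 weeks on average, and miR-206-3p, specific to skeletal muscle, was detected on 0 of 16 arrays. A further log2 sum covered 4 markers of platelets and white blood cells (miR-223-3p, miR-126a-3p, miR-150-5p and miR-142a-3p). It ran from 8.49 to 8.94 at 4 weeks, 7.11 to 9.34 at 8, 7.59 to 9.70 at 36 and 9.39 to 9.53 at 58 weeks. The range at 58 weeks lay above those at 4 and 8 weeks and within that at 36 weeks. The sums of the 4 red cell markers ran from 12.17 to 12.93, 11.34 to 12.27, 11.39 to 12.53 and 11.88 to 12.81 in the same order. Of these 4, miR-451a and miR-486a-5p were detected on 16 of 16 arrays, miR-16-5p on 15 and miR-144-3p on 6. The part of these cells and tissues in the level of miR-34a-5p was not tested. In serum, a change in how many cells release a miRNA and in how much each releases cannot be told apart.

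The wider p53 network was read through 3 lists. The first held 11 miRNAs reported to be transcribed or matured through p53, the second 6 reported to repress p53 mRNA and the third 3 reported to raise p53. All 20 had probes, 16 were called detected somewhere and 13 could be tested. In limma 0 of 13 passed the trend with age after adjustment over all 285 tested miRNAs, where 0.351% passed. At an unadjusted p under 0.05, 2 of 13 were reached, beside 8.77% of all tested. Of all tested miRNAs 0.351% passed for 36 against 4 and for 58 against 4 weeks, and 0% in each other pair. Of the 13 listed, 0 passed in each of the 6 pairs. At an unadjusted p under 0.05 there were 0 for 8 against 4 weeks (2.11% of all tested), 1 for 36 against 4 (3.51%), 1 for 58 against 4 (4.56%), 2 for 36 against 8 (29.8%), 3 for 58 against 8 (5.26%) and 0 for 58 against 36 weeks (1.75%).

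Among the miRNAs of the first list, 6 of 11 could be tested, 4 with a positive and 2 with a negative slope. Their median slope was 0.094 per doubling of age, beside 0.12 for all tested miRNAs. The highest were those of miR-205-5p (0.26 ± 0.14 SE, adjusted p = 0.525) and of miR-192-5p, which restrains the p53 inhibitor Mdm2 (0.24 ± 0.14, adjusted p = 0.525). The lowest was that of miR-16-5p, which targets Bcl2 and cyclins (-0.17 ± 0.25, adjusted p = 0.624). With all 16 arrays 57.9% of all tested miRNAs had a positive slope. Without the 3 marked arrays 6 of 6 had a positive slope (median 0.17), beside 55.4% of all tested (median 0.072). The slope of miR-16-5p was then 0.024. Between 8 and 4 weeks and between 58 and 36 weeks, within slides, the list's median differences were -0.67 and 0.77, beside -0.72 and -0.52 for all tested. Between 58 and 36 weeks 6 of 6 tested members had a positive difference, from 0.28 to 1.56, beside 31.2% of all tested, and none of the 6 passed (smallest adjusted p = 0.717). Both sides of this comparison moved with 36-week replicate 4. Without that array 4 of 6 had a positive difference (median 0.80) beside 66.7% of all tested (median 0.30), and without the 3 marked arrays 4 of 6 (median 0.86) beside 65.1% (median 0.26). Without the 3 marked arrays the medians between 8 and 4 weeks were -0.35 for the list and 0.060 for all tested. The SD at 36 weeks was 3.30 for miR-16-5p and 1.99 for miR-15a-5p, each detected on 3 of 4 arrays of that age. MiR-143-3p, miR-145a-5p and miR-141-3p were detected on 0 of 16 arrays, and miR-194-5p and miR-200c-3p on 2 of 16 each.

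Of the second list 4 of 6 could be tested, with slopes from -0.071 (miR-125b-5p) to 0.25 (miR-125a-5p) and a median of 0.051. Its members miR-25-3p and miR-30d-5p had slopes of 0.017 and 0.084. The third list is the miR-29 family, which targets regulators that hold p53 down, and 3 of 3 could be tested. Its slopes were 0.43 ± 0.14 (SE) for miR-29b-3p (adjusted p = 0.346), 0.23 ± 0.091 for miR-29a-3p (adjusted p = 0.493) and 0.17 ± 0.18 for miR-29c-3p (adjusted p = 0.534). Scaled log2 signals of miR-29b-3p were 2.40 ± 0.66 (SD, n = 4) in the youngest mice, 2.65 ± 0.63 at 8, 3.25 ± 1.54 at 36 and 4.29 ± 0.34 at 58 weeks, detected on 2, 3, 2 and 4 of 4 arrays. With the brightest probe of each miRNA in place of the mean of its probes, miR-29a-3p and miR-29b-3p passed the trend as higher, beside 1.05% of all tested.

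Without the 3 marked arrays 3 of 13 listed miRNAs passed the trend, all of them higher with age, namely miR-125a-5p (slope 0.35, adjusted p = 0.0172), miR-29b-3p (0.44, adjusted p = 0.0409) and miR-29a-3p (0.22, adjusted p = 0.0412) in limma. That fit held 2 mice at 4 weeks and 3 at 36 weeks, with no term for slide. In it 50.8% of the 307 tested miRNAs passed, and 31.6% of the 307 passed as higher. The count of listed miRNAs is thus no sign of a change particular to them. Between 8 and 4 weeks without these arrays 0 of 13 passed, beside 1 of 307. Between 58 and 36 weeks 0 of 13 passed, beside 2 of 307.

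**Figure D5:**
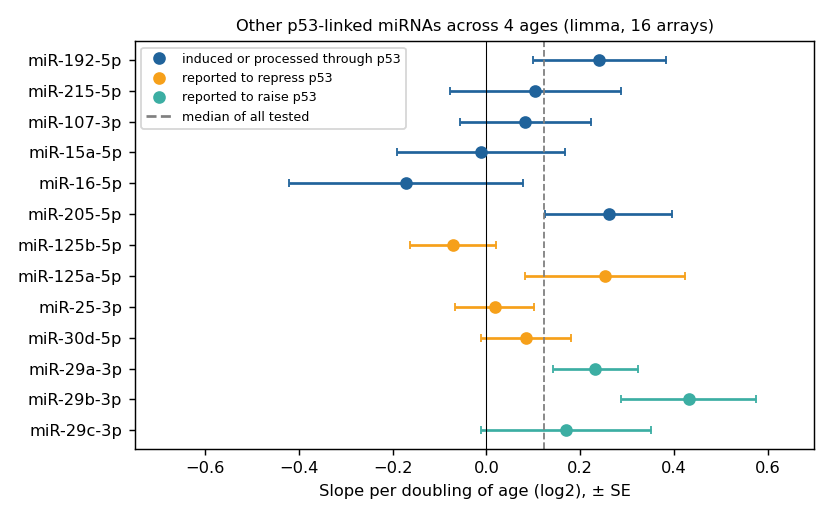
Slope of scaled log2 signal per doubling of age for the 13 tested p53-linked miRNAs, with bars of ± 1 SE from limma over 16 arrays and colours for the 3 lists. The slopes run from -0.17 for miR-16-5p to 0.43 for miR-29b-3p around the median of all 285 tested miRNAs (0.12, dashed), and none passed after adjustment.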

How the data were processed

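The deposited values are scanner output of 16 Agilent arrays. Intensity per spot came from Agilent Feature Extraction, as the authors' processing notes and, per the file headers, the files name it (versions 11.5 and 11.5.1.1). The authors' background-subtracted intensity, outlier flags (2.32% to 4.48% of miRNA spots) and detection calls were used as deposited, and no scaling between arrays is recorded. Unflagged spots were averaged per probe and probes per miRNA, each array was scaled to an equal 75th percentile over 24 always-detected miRNAs, and values were raised to a floor of 3.79 before log2 (for each array the dimmest detected miRNA after scaling, then the median of these). Tests covered miRNAs detected on at least 3 of 4 arrays of an age, or on all arrays of an age where fewer than 3 were left. Ages were compared over all 16 arrays with limma 3.58.1 in R 4.3.3 (lmFit, eBayes), adjusted by Benjamini-Hochberg over the 285 tested at a threshold of 0.05. The fit was tested on simulated data. Members and lists were chosen with earlier results of these data known. Named were the members, their other arms, seed relatives, listed and marker miRNAs, and the 5 miRNAs with the highest Pearson r with miR-34a-5p. In the main fits over 16 arrays any miRNA passing was also named where 5 or fewer did. Same-numbered replicates of different ages are different mice. The number of arrays limits precision, and no pair of arrays held identical values. Mature sequences are from RefSeq (GRCm38.p6), where 1608 of 1881 array miRNAs matched by name.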

Additional observations from a re-analysis of the deposited data

Results flagged for a closer look

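Dixon's criterion set a single array of an age apart in 9 of 36 groups of 4 values, and chance alone sets about 1.80 apart. Negative-control spots of 36-week replicate 4 had an SD of 59.3, against 2.76 to 4.39 on the other arrays of that age, and those of 8-week replicate 3 an SD of 3.54, against 1.82 to 2.01. On 36-week replicate 4 the intensity was -83.5 for miR-34b-5p, -81.7 for miR-34c-5p, -35.8 for miR-34c-3p and 274.7 for miR-34b-3p, each far from the other 3 arrays of that age. On 8-week replicate 3 it was -3.89 for miR-34a-3p, -5.73 for miR-34c-3p and 6.74 for miR-34b-3p. These 7 intensities were thus from the 2 arrays whose negative-control SD also stood apart, and no array stood apart in this way for miR-34a-5p.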

How the results depend on the processing

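MiR-34a-5p is a dim miRNA, and its signal over background limits every value given for it. With no scaling between arrays its slope was 0.15 and its differences were -1.16 (8 against 4 weeks), 0.39 (36 against 4), -0.073 (58 against 4), 1.08 (58 against 8) and -0.46 (58 against 36). Under quantile normalization the slope was 0.20 and the differences 0.67 (8 against 4), 0.11 (36 against 8) and 0.25 (58 against 8). With the deposited total signal they were 0.12, 1.05 and 0.91 in the same order. With normexp (offset 50) and quantile normalization together the slope was 0.045 and the differences 0.12, 0.17 (36 against 4), 0.20 (58 against 4), 0.050 (36 against 8) and 0.071 (58 against 8). With the brightest probe, where the floor rose to 3.94 on the log2 scale, the slope was 0.24 and the differences 0.85 (36 against 8) and 1.02 (58 against 8). Under the main scaling and floor, probe 2, the brighter, ran from 3.06 to 3.75 at 8 weeks, all under 3.94. Its differences there were 1.59 (36 against 8) and 1.62 (58 against 8). The part of the floor in the smaller differences was not tested. With slide as a block the slope was -0.45. Without the 3 marked arrays the difference between 8 and 4 weeks was -0.12. Leaving out 1 array at a time, the slope ran from 0.32 to 0.43, and the differences from -0.92 to -0.30 (8 against 4), 0.68 to 1.20 (36 against 4), 0.71 to 1.22 (58 against 4), 1.20 to 1.74 (36 against 8), 1.33 to 1.76 (58 against 8) and -0.18 to 0.13 (58 against 36). The value of -0.30 was that without 36-week replicate 4, an array of neither age, whose removal changed the scaling of the others. The negative value for 58 against 36 weeks was that without 58-week replicate 3.

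The number of miRNAs passing the trend was 6 with no scaling, 8 with the brightest probe and 156 without the marked arrays. It was 0 under quantile normalization, the total signal, normexp with quantile normalization, outlier spots kept, slide as a block or detection on at least 8 arrays. For 36 against 4 weeks it was 3, 4 and 7 under the first 3 of these, 2 with all miRNAs detected on at least 1 array, and 0 under quantile normalization, the total signal, normexp, outlier spots kept, detection on at least 8 arrays, the replicate block or the 8 arrays of the pair alone. For 58 against 4 weeks it was 3, 4 and 17 under the first 3, 2 with a higher floor or with all miRNAs detected on at least 1 array, 4 with the 8 arrays of the pair, and 0 under quantile normalization, the total signal, normexp, outlier spots kept, detection on at least 8 arrays or the replicate block. For 8 against 4 weeks it was 1 without the marked arrays and 1 with all miRNAs detected on at least 1 array. Without the marked arrays it was 6 for 58 against 8 and 2 for 58 against 36 weeks. With 1 array left out it ran from 1 to 3 for the trend, 0 to 2 for 36 against 4, 0 to 3 for 58 against 4 and 0 to 1 for 58 against 8 weeks, and was 0 in the other pairs. The highest counts were those without 36-week replicate 4 (trend and 58 against 4), 4-week replicate 4 (36 against 4) and 8-week replicate 3 (58 against 8). For 36 against 4 weeks the count was 0 without any of 4-week replicates 1 to 3, 8-week replicate 2 or any array of slide 2, and for 58 against 4 weeks it was 0 without 4-week replicates 2 or 3 or any 58-week array. Of the p53-linked miRNAs 2 passed the trend with the brightest probe and 3 without the marked arrays, and 0 in the other alternatives run, each single array left out included. The cause of these changes was not tested. Replicate numbers did not pair the arrays (correlation of deviations over 0.1 in 11 of 24 same-numbered pairs), and the replicate block left the slope of miR-34a-5p at 0.36. A 75th percentile over all miRNAs as the scale was not run, since it was below 0 on 58-week replicate 3.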
